A study of Mus musculus with 12 samples.

Results

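A set of 10 genes, none placed on a sex chromosome, was examined because their array signal separated macrophages of GPR15 knockout (KO) mice from those of wild-type (WT) mice: Lrmda, Pisd-ps3, Cndp2, Emid1, Tppp3, Fabp7, Col18a1, Nudt7, Itpka and Cyp1b1. They are 10 of 22911 genes with a named probe on the array, and were found by matching the transcript identifier of each probe to the gene table of RefSeq. Their KO against WT differences in PBS and after LPS are what chose them, so these differences are given here as descriptions without a test. The samples were macrophages from the abdominal cavity of C57/BL6 mice, cultured in DMEM with 10% FBS. GPR15 is a G protein-coupled receptor best known as a homing receptor of T cells. The 4 groups were KO cells given LPS, WT cells given LPS, KO cells given PBS and WT cells given PBS, with 3 one-colour Agilent arrays each. LPS, the endotoxin of Gram-negative bacteria, which macrophages sense through a Toll-like receptor, was used at 100 ng/ml for 4 h. The labels do not give the age or sex of the mice, how the KO allele was made, whether the WT mice were littermates, or whether replicates came from separate mice, so the p-values measure the spread between these samples, which may be technical.

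These genes are not members of 1 pathway. Lrmda binds Rab32 and Rab38 and takes part in melanosome maturation in pigment cells. Cndp2 is a cytosolic dipeptidase that acts on cysteinylglycine, a breakdown product of glutathione, and Nudt7 is a peroxisomal hydrolase of coenzyme A. Fabp7 carries long-chain fatty acids, Cyp1b1 is a cytochrome P450 that the aryl hydrocarbon receptor induces, and Itpka phosphorylates inositol trisphosphate and bundles actin. Tppp3 belongs to a family of proteins that bind and bundle microtubules. Emid1 and Col18a1 encode secreted proteins with collagen stretches, and the end of collagen XVIII is released as endostatin. Pisd-ps3 is annotated as a pseudogene of Pisd, the mitochondrial enzyme that makes phosphatidylethanolamine from phosphatidylserine.

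A level below is log2 of the processed signal minus the 75th percentile of the same array, so that 0 is the brightness of that percentile and a difference of 1 is a 2-fold change. On each array 48.8% to 57.1% of spots were well above background and 0 were saturated. The knocked-out gene, Gpr15, was well above background on 0 of 12 arrays, so its probe did not check the genotype labels. Xist could be read above background on 0 of 6 KO arrays and 6 of 6 WT arrays, and the Y-linked gene Ddx3y on 6 of 6 KO arrays and 0 of 6 WT arrays, a KO excess of at least 10.2-fold in PBS and of at least 13.8-fold with LPS. Each KO against WT difference is therefore also one between Y-positive and Xist-positive samples, and genotype and sex cannot be told apart. All WT arrays and KO PBS-1 and PBS-2 lay on slide 1, and KO PBS-3 and all KO LPS arrays on slide 2, each slide with its own scan. All 10 macrophage markers, Adgre1 and Csf1r among them, were well above background on all 12 arrays. So were 9 of 9 B cell, 8 of 9 T cell and 8 of 9 mast cell markers. Of the neutrophil list, Camp, Elane, S100a8 and S100a9 were read on all 12 arrays, Mpo on 11 and Retnlg on 9, and Cxcr2, Ltf and Ngp on 0. S100a9 had a mean level of 1.05 in KO and -1.59 in WT in PBS, and of 0.80 in KO and -1.53 in WT after LPS. The brighter S100a8 had 1.275 in KO and 0.50 in WT in PBS, but 2.20 in KO and 2.36 in WT after LPS. Of the mesothelial and stromal list, Dcn and Pdpn were read on all 12 arrays, Krt18 on 5, Lrrn4 on 2 and Msln on 1, and Col1a1, Col3a1, Krt19, Upk3b and Wt1 on 0. Markers of these other cell types were thus read in part, and which cells their RNA came from was not tested. The summed B cell level was 7.23 to 7.34 in KO and 7.53 to 7.81 in WT in PBS, and 6.38 to 6.40 in KO and 6.71 to 6.91 in WT after LPS. The summed neutrophil level was 2.62 to 3.21 in KO and 1.72 to 2.06 in WT in PBS, and 3.01 to 3.34 in KO and 2.08 to 3.36 in WT after LPS. The summed mast cell level was 6.64 to 6.87 in KO and 6.80 to 7.24 in WT in PBS, and 7.57 to 7.69 in KO and 7.92 to 8.05 in WT after LPS. Its brightest gene, Hdc, rose with LPS by 1.44 in KO and 1.54 in WT. The next brightest, Mcpt4 and Cma1, rose by 0.28 and 0.19 in KO and by 0.24 and 0.36 in WT. The summed T cell level was 4.25 to 4.35 in KO and 4.39 to 4.76 in WT in PBS, and 3.43 to 3.60 in KO and 3.55 to 3.69 in WT after LPS. The summed mesothelial and stromal level was 2.96 to 3.20 in KO and 2.99 to 4.26 in WT in PBS, and 5.391 to 5.602 in KO and 5.69 to 6.04 in WT after LPS. This sum was carried mostly by Pdpn, at 3.03 in KO and 3.69 in WT in PBS and 5.47 in KO and 5.87 in WT after LPS. Dcn went from -2.31 in PBS to -2.39 after LPS in KO, and from -2.02 to -1.56 in WT. The rise of these sums is therefore no measure of more cells of a type. The part of these cells in the results below was not tested, and in such bulk samples fewer cells of a type and less RNA per cell cannot be told apart.

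All 10 genes passed the filter on dim probes, for which every array of some group had to read the probe well above background. In PBS the KO and WT arrays did not overlap for 10 of 10 genes, and after LPS for 9 of 10. Over all 13283 genes tested they did not overlap for 30.5% in PBS and 58.4% after LPS, and 14.1% passed an adjusted p of 0.05 for KO against WT in PBS (limma) and 39.5% did so after LPS. Nothing is read from the counts, because the genes were picked on these contrasts. The 7 genes Lrmda, Pisd-ps3, Tppp3, Emid1, Cndp2, Fabp7 and Col18a1 were among 98 of 12876 genes not placed on X or Y whose measured means differed at least 2-fold in the same direction in both states, of which 65 were higher and 33 lower in KO. By the smaller of the PBS and LPS differences, Pisd-ps3 ranked 12, Tppp3 22, Cndp2 25, Fabp7 64 and Col18a1 81. Lrmda came out at 1 and Emid1 at 24, but these places rest on fitted values of arrays that were not well above background, those of WT for Lrmda and those after LPS for Emid1. Itpka ranked 669, Nudt7 1289 and Cyp1b1 9031, so a 2-fold difference throughout both states was not borne out for the last 3. For Emid1 it was not borne out either, since after LPS no array of either genotype was well above background.

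**Figure D1:**
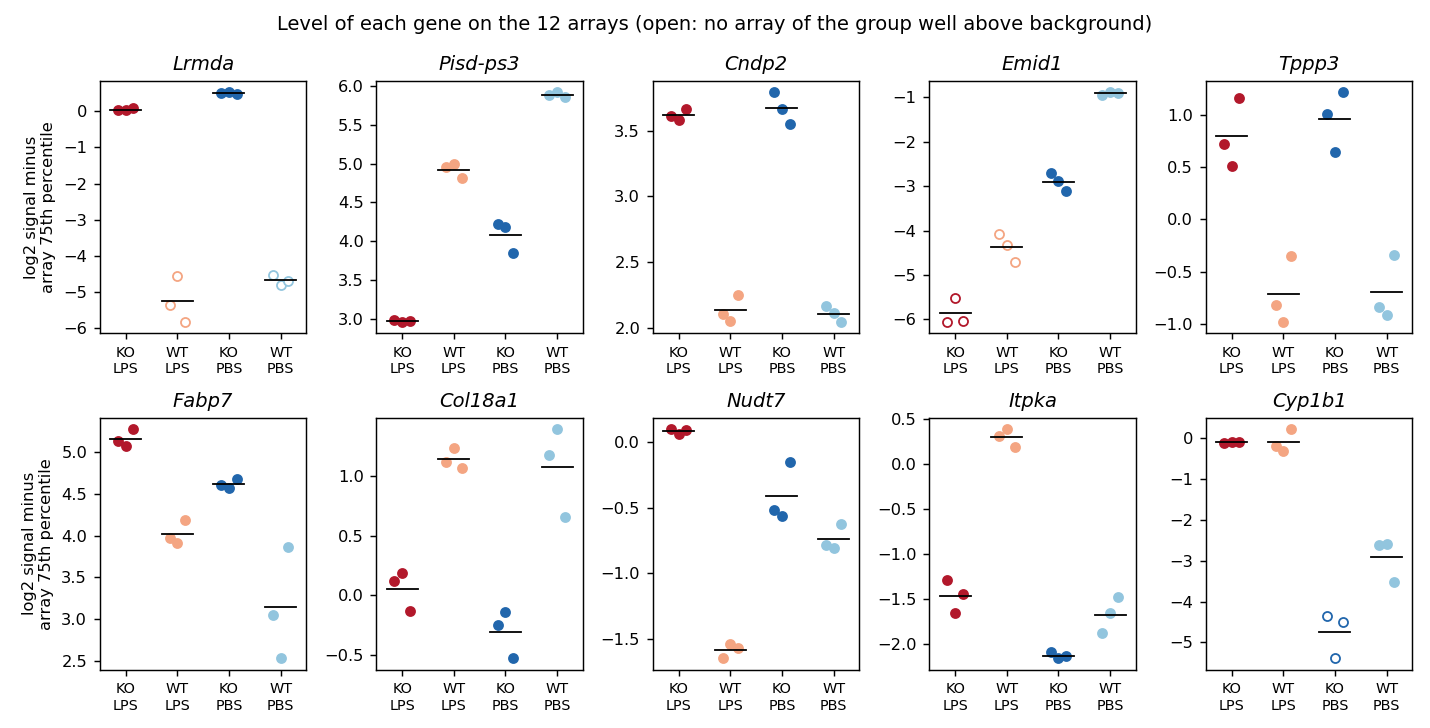
Level of each gene on the 12 arrays (y axis, log2 signal minus the array's 75th percentile) in KO LPS, WT LPS, KO PBS and WT PBS cells; each point is 1 array, each line a group mean, and open points mark a group with no array well above background. Lrmda is open in both WT groups, Emid1 in both LPS groups and Cyp1b1 in KO PBS only.

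Lrmda showed the widest gap. Its level was 0.52, 0.52 and 0.47 on the KO PBS arrays, against -4.52, -4.82 and -4.71 on the WT PBS arrays. After LPS it was 0.03, 0.04 and 0.08 in KO, against -5.36, -4.55 and -5.82 in WT. The KO arrays of each state lay close together, and no WT array of either state was well above background. The KO excess of Lrmda was thus at least 23.9-fold in PBS and at least 16.1-fold with LPS, with the dimmest signal that WT arrays could read above background as the WT value. With normexp background correction and an offset of 50, which by its construction pulls dim signals together, the fitted difference of Lrmda was 3.27 in PBS and 2.89 after LPS (log2). The other 2 probes of Lrmda behaved alike, with bounds on the log2 difference of at least 4.32 and 2.36 in PBS and at least 3.81 and 1.70 with LPS. KO PBS-3, the PBS array on slide 2, differed from KO PBS-1 and PBS-2 by only -0.049.

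Pisd-ps3 was bright in both genotypes and lower in KO. Its levels were 4.23, 4.18 and 3.85 in KO PBS, against 5.88, 5.91 and 5.86 in WT PBS, and 2.98, 2.97 and 2.98 in KO after LPS, against 4.96, 4.99 and 4.82 in WT after LPS. The genotypes did not overlap in either state. The difference was -1.80 ± 0.084 in PBS and -1.94 ± 0.084 after LPS (log2, KO minus WT, ± SE, n = 3 arrays per group, as for the differences below). A second, dimmer probe assigned to Pisd-ps3 did not show it: its KO minus WT difference was -0.27 ± 0.14 in PBS and -0.013 ± 0.14 after LPS, and the genotypes overlapped. Pseudogenes of Pisd share sequence with it and with each other. Whether these probes tell RNA of the copies apart was not tested, as no probe sequences were at hand. Pisd-ps1, another such pseudogene, had a difference of -0.26 in PBS (adjusted p = 0.00222, limma) and of -0.0935 after LPS (adjusted p = 0.0953, limma).

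Cndp2, the dipeptidase, was higher in KO. Its levels were 3.79, 3.67 and 3.55 in KO PBS, against 2.17, 2.11 and 2.05 in WT PBS. After LPS they were 3.61, 3.58 and 3.67 in KO, against 2.11, 2.05 and 2.25 in WT. All KO arrays lay above all WT arrays, with a difference of 1.56 ± 0.068 in PBS and 1.48 ± 0.068 after LPS, or 2.94-fold and 2.79-fold. KO PBS-3 lay -0.17 from the other KO PBS arrays.

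Emid1 was measured in PBS only. Its levels were -2.71, -2.89 and -3.12 in KO PBS, against -0.94, -0.89 and -0.90 in WT PBS, a difference of -1.999 ± 0.207. All 6 PBS arrays were well above background, and the WT arrays lay closer together than the KO arrays. After LPS 0 of 3 KO arrays and 0 of 3 WT arrays were well above background, so no genotype fold is given there. A second Emid1 probe was well above background on 1 array in all, in WT PBS. Col18a1, the other gene for a collagen-containing secreted protein, was also lower in KO, with levels of -0.25, -0.14 and -0.53 in KO PBS, against 1.18, 1.40 and 0.66 in WT PBS. After LPS Col18a1 was at 0.12, 0.19 and -0.14 in KO, against 1.12, 1.24 and 1.07 in WT. No KO array reached the lowest WT array in either state, and the difference was -1.38 ± 0.16 in PBS and -1.09 ± 0.16 after LPS.

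Tppp3 and Fabp7 were both higher in KO, with wider spread among arrays. The levels of Tppp3 were 1.01, 0.65 and 1.21 in KO PBS, against -0.84, -0.92 and -0.34 in WT PBS. After LPS they were 0.72, 0.51 and 1.16 in KO, against -0.82, -0.98 and -0.35 in WT. In each of the 4 groups the array with number 3 was the highest. The Tppp3 difference was 1.66 ± 0.22 in PBS and 1.51 ± 0.22 after LPS, and its second, dimmer probe gave 1.59 ± 0.26 and 1.09 ± 0.26. Fabp7 had levels of 4.61, 4.57 and 4.68 in KO PBS, against 3.04, 2.53 and 3.86 in WT PBS, and of 5.13, 5.07 and 5.28 in KO after LPS, against 3.97, 3.91 and 4.19 in WT after LPS. The WT PBS arrays of Fabp7 spanned more than 1 log2 unit while the KO PBS arrays lay close together, and no groups of one state overlapped. Its difference was 1.47 ± 0.24 in PBS and 1.14 ± 0.24 after LPS. The PBS difference of Fabp7 was 1.83 without WT PBS-3 and 1.16 without WT PBS-2.

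Nudt7 and Itpka separated the genotypes mainly after LPS, in opposite directions. For Nudt7, the hydrolase of coenzyme A, the levels after LPS were 0.10, 0.07 and 0.09 in KO, against -1.65, -1.54 and -1.57 in WT. In PBS they were -0.52, -0.56 and -0.15 in KO, against -0.79, -0.81 and -0.63 in WT, a small gap that was widened by KO PBS-3. The Nudt7 difference was 1.67 ± 0.10 after LPS and 0.33 ± 0.10 in PBS, and 0.20 ± 0.080 in PBS on slide 1 alone. Its second probe put the genotypes together in both states. That probe had levels of -2.84, -2.68 and -2.69 in KO, against -2.53, -3.24 and -2.65 in WT after LPS, and a difference of 0.070 ± 0.16. Its difference in PBS was 0.063 ± 0.16. The Nudt7 values above thus hold for 1 of its 2 probes.

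Itpka, the inositol trisphosphate kinase, was at -1.29, -1.66 and -1.44 in KO after LPS, against 0.32, 0.39 and 0.19 in WT after LPS. In PBS it was at -2.10, -2.16 and -2.14 in KO, against -1.88, -1.66 and -1.49 in WT. KO was lower without overlap in both states, by a difference of -1.76 ± 0.11 after LPS and -0.46 ± 0.11 in PBS. KO PBS-3 lay -0.011 from the other KO PBS arrays.

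Cyp1b1 differed by genotype in PBS only. Its levels were -4.34, -5.39 and -4.51 in KO PBS, where 0 of 3 arrays were well above background, against -2.61, -2.59 and -3.52 in WT PBS, where all 3 were. KO was at least 2.41-fold lower, while with normexp and its offset the fitted difference was -0.60 (log2). After LPS the 2 genotypes lay together, at -0.11, -0.08 and -0.09 in KO, against -0.19, -0.30 and 0.22 in WT, with a difference of -0.0040 ± 0.29.

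Slide and genotype coincide after LPS, where KO and WT arrays never share a slide. On slide 1, KO PBS-1 and PBS-2 can be set against the WT PBS arrays. There the differences were 5.20 for Lrmda, -1.68 for Pisd-ps3, 1.62 for Cndp2, -1.89 for Emid1, 1.53 for Tppp3, 1.44 for Fabp7, -1.27 for Col18a1, 0.20 for Nudt7, -0.45 for Itpka and -1.96 for Cyp1b1, each of the same sign as over all arrays. The difference of KO PBS-3, on slide 2, from KO PBS-1 and PBS-2 had a median size of 0.32 over the 10 genes, against 0.16 over all 13283 genes. It was largest for Nudt7 at 0.39, for Tppp3 at 0.38, for Cyp1b1 at 0.36, for Pisd-ps3 at -0.35, for Col18a1 at -0.33 and for Emid1 at -0.31. With slide as a term, which takes the slide effect from the 3 KO PBS arrays, the differences after LPS were 5.34 for Lrmda, -1.59 for Pisd-ps3, 1.66 for Cndp2, 1.13 for Tppp3, 1.04 for Fabp7, -0.75 for Col18a1, 1.28 for Nudt7, -1.75 for Itpka and -0.36 ± 0.53 for Cyp1b1. Col18a1 went below a 2-fold size, and the value of Cyp1b1 was smaller than its SE. KO PBS-3 is the only PBS array on slide 2, so this slide effect rests on 1 array. Nothing is read from the signs, here or on slide 1, because the genes were picked on these contrasts.

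**Figure D2:**
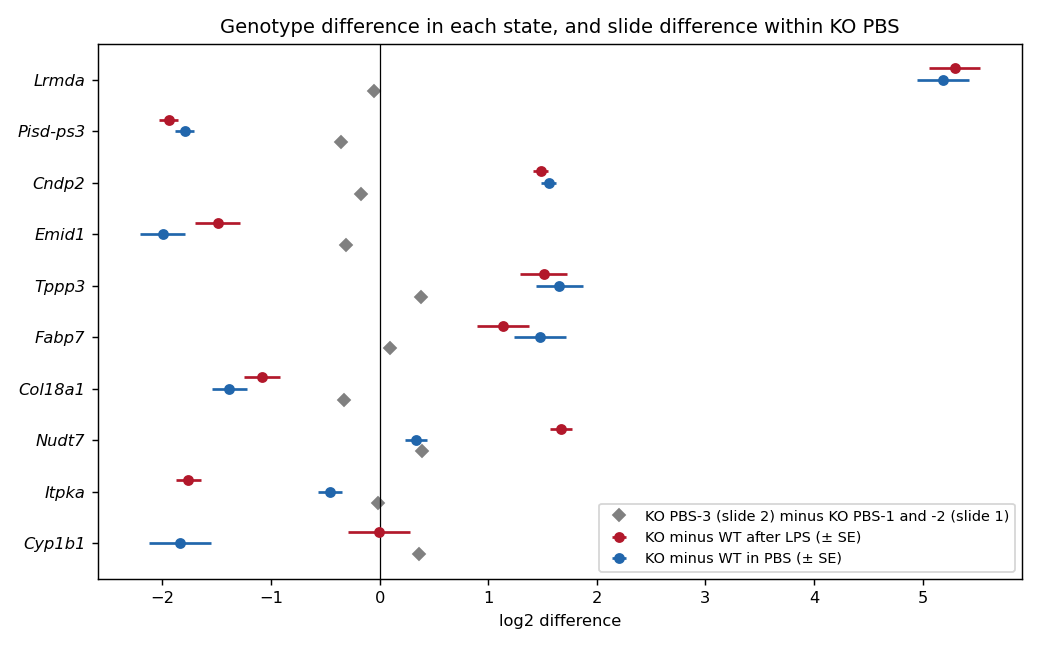
KO minus WT difference of each gene (x axis, log2) after LPS (red) and in PBS (blue), with bars of 1 SE from the limma fit, and the difference of KO PBS-3 on slide 2 from KO PBS-1 and PBS-2 on slide 1 (grey diamonds). Lrmda lies beyond 5 in both states, Cyp1b1 lies at -0.0040 after LPS, and the Nudt7 difference in PBS, 0.33, is about as large as its slide difference, 0.39; the WT values of Lrmda, the LPS values of Emid1 and the KO PBS values of Cyp1b1 were not well above background.

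The response to LPS was tested as the mean over both genotypes, which is independent of the KO against WT differences that chose the genes, and in each genotype. The responses within a genotype use the same arrays as those differences, so their p-values are not free of the choice of genes. Slide and LPS also coincide in part in KO, where all LPS arrays but only KO PBS-3 lay on slide 2, and this enters the mean too. On slide 2 alone, with KO PBS-3 as the only PBS array, the response in KO was -0.875 for Pisd-ps3, 0.68 for Itpka and 0.48 for Fabp7. It was 0.58 for Col18a1, -0.42 for Tppp3, -0.42 for Lrmda, 0.066 for Cndp2 and 0.23 for Nudt7. In KO, 3 of 10 genes passed the test as higher after LPS and 2 as lower, against 67.0% of all genes called in either direction. In WT, 3 passed as higher and 3 as lower, against 64.7% of all genes. For the mean over both genotypes 3 were higher and 4 lower, against 74.6% of all genes. The median response of the 10 genes was 0.16 in KO, 0.0041 in WT and -0.051 for the mean, beside 0.040, 0.027 and 0.050 (log2) over all genes tested. Each of these counts is near the share of all genes and is no result about these 10.

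Cyp1b1, Itpka and Fabp7 rose after LPS over both genotypes. The mean response was 1.32 ± 0.081 for Itpka (adjusted p = 2.16e-08, limma) and 0.71 ± 0.17 for Fabp7 (adjusted p = 0.00234, limma). For Cyp1b1 it was fitted at 3.74 ± 0.20 (adjusted p = 7.45e-09, limma), in part from KO PBS arrays not well above background. Within genotypes, Cyp1b1 rose at least 17.0-fold in KO, where the PBS arrays were not well above background, with an adjusted p of 6.29e-08 (limma). In WT its response was 2.82 ± 0.29 (adjusted p = 3.5e-06, limma), or 7.05-fold. All LPS arrays lay above all PBS arrays in both genotypes. Itpka rose by 0.67 ± 0.11 in KO (adjusted p = 0.000274, limma) and by 1.98 ± 0.11 in WT (adjusted p = 2.93e-08, limma). Fabp7 rose by 0.88 ± 0.24 in WT (adjusted p = 0.00661, limma). Its response in KO was 0.54 ± 0.24 (adjusted p = 0.0635, limma), and that gain passed the threshold without WT PBS-2 (adjusted p = 0.0128, limma) or WT PBS-3 (adjusted p = 0.00158, limma), which enter the shared estimate of the spread.

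Emid1 and Pisd-ps3 fell after LPS over both genotypes. The mean response of Pisd-ps3 was -1.04 ± 0.059 (adjusted p = 1.16e-08, limma). Emid1 was kept by the filter through its PBS arrays alone, so that its fall after LPS was fixed in part by the filter. Its fall was at least 2.89-fold in KO (adjusted p = 1.73e-07, limma) and at least 8.16-fold in WT (adjusted p = 3.61e-08, limma), with bounds and p-values that rest on LPS arrays not well above background. KO cells had the lower PBS level, so the bounds cannot be compared as responses. Pisd-ps3 fell by 1.11 ± 0.084 in KO (adjusted p = 3.3e-07, limma) and by 0.96 ± 0.084 in WT (adjusted p = 9.01e-07, limma). Its second probe had a response of -0.22 ± 0.14 in KO (adjusted p = 0.173, limma over all probes) and fell by 0.48 ± 0.14 in WT (adjusted p = 0.00951, limma over all probes).

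The probe that stands for Nudt7 rose by 0.49 ± 0.10 in KO (adjusted p = 0.000988, limma) and fell by 0.85 ± 0.10 in WT (adjusted p = 1.22e-05, limma). On slide 2 alone, where KO LPS can be set against KO PBS-3, its response in KO was 0.23. The second probe of Nudt7 fell in both genotypes, by 1.53 ± 0.16 in KO (adjusted p = 8.71e-06, limma over all probes) and by 1.54 ± 0.16 in WT (adjusted p = 7.35e-06, limma over all probes). The response of Nudt7 in KO thus has opposite signs at its 2 probes, and the mean of both probes gave -0.52 in KO (adjusted p = 0.000579, limma).

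**Figure D3:**
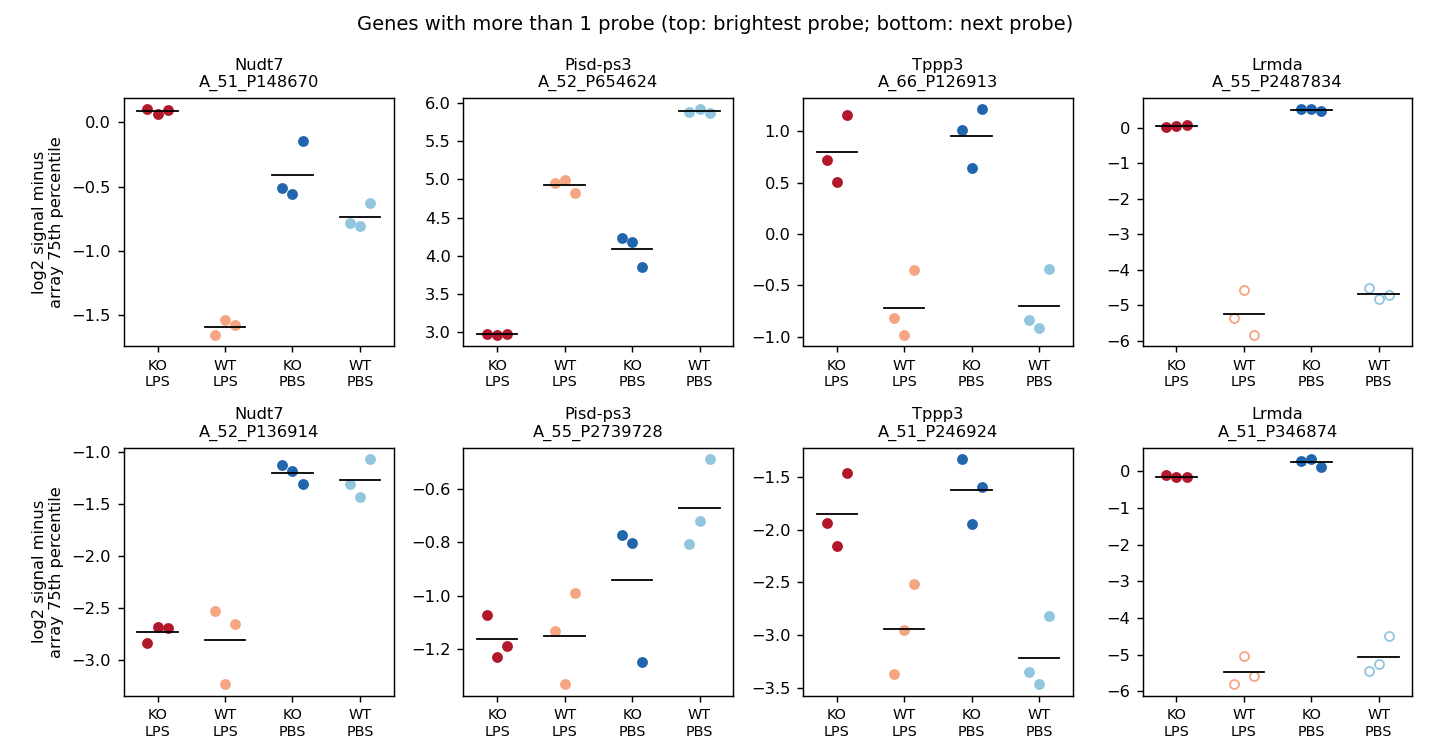
Levels (y axis, log2 signal minus the array's 75th percentile) of the brightest probe (top row) and the next probe (bottom row) of Nudt7, Pisd-ps3, Tppp3 and Lrmda in KO LPS, WT LPS, KO PBS and WT PBS cells; each point is 1 array, each line a group mean, and open points mark a group with no array well above background. Both probes of Lrmda and Tppp3 separate the genotypes, while the next probes of Nudt7 and Pisd-ps3 do not.

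The other 4 genes did not pass the test in either genotype. Cndp2 had a response of -0.050 ± 0.068 in KO (adjusted p = 0.532, limma) and 0.025 ± 0.068 in WT (adjusted p = 0.763, limma). Tppp3 had -0.16 ± 0.22 in KO and -0.017 ± 0.22 in WT (adjusted p = 0.525 and 0.95, limma). The genotype gap of both was large beside their LPS response, but both were picked on that gap, so nothing is read from this. Col18a1 had a response of 0.36 ± 0.16 in KO (adjusted p = 0.0674, limma) and 0.066 ± 0.16 in WT (adjusted p = 0.745, limma). In KO it passed the threshold without WT PBS-2 (0.0392), without WT PBS-3 (0.0131), without KO LPS-3 (0.0464) or with normexp (0.044), as adjusted p-values from limma. With slide as a term the Col18a1 response in KO was 0.58, a value that rests on KO PBS-3 alone. Lrmda had a response of -0.45 ± 0.24 in KO (adjusted p = 0.111, limma), although its KO LPS arrays all lay below its KO PBS arrays. The spread in this fit is shared with the WT arrays, which were not well above background, and without WT LPS-2 the adjusted p of Lrmda in KO was 0.00897 and without WT LPS-3 0.0339 (limma). Over both genotypes the mean response of Lrmda was -0.51 ± 0.17 (adjusted p = 0.0166, limma) and that of Nudt7 -0.18 ± 0.071 (adjusted p = 0.0387, limma). These 2, with Emid1 and Pisd-ps3, were the 4 genes called lower for the mean, and the Lrmda value rests in part on WT arrays that were not well above background.

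**Figure D4:**
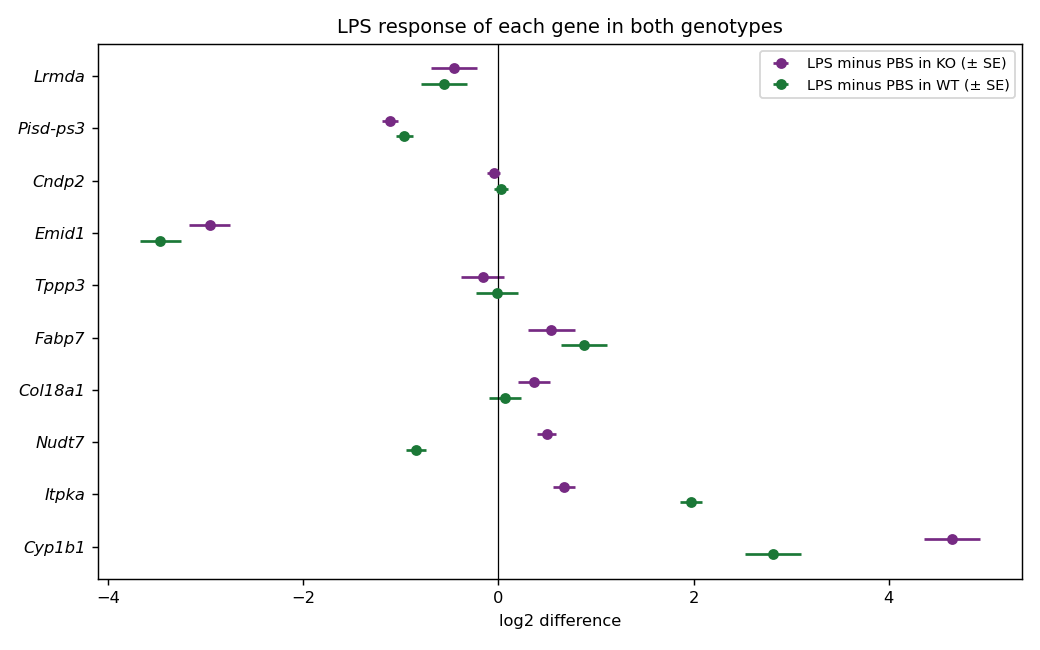
LPS minus PBS response of each gene (x axis, log2) in KO (purple) and in WT (green), with bars of 1 SE from the limma fit. Cyp1b1 and Itpka lie right of 0 and Emid1 and Pisd-ps3 left of 0 in both genotypes, and Nudt7 lies at 0.49 in KO and -0.85 in WT; the WT values of Lrmda, the LPS values of Emid1 and the KO PBS values of Cyp1b1 were not well above background.

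The KO minus WT differences of the LPS response follow from the contrasts that chose the genes and carry no test. They were 1.34 ± 0.14 for the brightest probe of Nudt7 and -1.30 ± 0.16 for Itpka. With slide as a term, which rests on KO PBS-3, they were 1.08 and -1.30. For Cyp1b1 the response was at least 4.08 in KO, against 2.82 in WT (log2), so only a bound can be given in KO, and with normexp the fitted difference of the responses was 0.65. For Pisd-ps3, Cndp2, Tppp3, Fabp7 and Col18a1 the differences ranged in size from 0.075 for Cndp2 to 0.34 for Fabp7. With slide as a term they ranged in size from 0.040 for Cndp2 to 0.52 for Col18a1. The sign turned for Pisd-ps3, from -0.15 to 0.089, and for Cndp2, from -0.075 to 0.040. None is given for Emid1 and Lrmda, which were not well above background in both LPS groups and in both WT groups. In Cyp1b1 the response in KO came with a lower PBS level and overlapping levels after LPS, whereas in Itpka the smaller response in KO came with a lower level after LPS.

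The 250 bases before the annotated start of each gene were taken from the promoter table of RefSeq for build GRCm38.p6, in which 7 of the 10 genes were matched: Itpka, Nudt7, Fabp7, Col18a1, Emid1, Lrmda and Cyp1b1. The windows were searched on both strands for GCGTG, the core to which the aryl hydrocarbon receptor binds, for GAGGAAG, a form of the site of the macrophage factor PU.1, for TGANTCA, the AP-1 site, and for TATAAA. The windows of Lrmda and Cyp1b1 are shown because they are the gene with the widest genotype gap and the gene with the largest rise after LPS among the 10. Capitals mark the motif matches, CACGC being GCGTG and CTTCCTC being GAGGAAG on the other strand.
Lrmda, chr14:22019462-22019711, plus strand: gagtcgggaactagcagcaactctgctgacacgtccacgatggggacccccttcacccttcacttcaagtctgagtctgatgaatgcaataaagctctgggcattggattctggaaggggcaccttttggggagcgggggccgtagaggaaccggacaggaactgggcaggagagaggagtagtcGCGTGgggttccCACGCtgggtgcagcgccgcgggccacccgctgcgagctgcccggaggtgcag
Cyp1b1, chr17:79715062-79715311, minus strand: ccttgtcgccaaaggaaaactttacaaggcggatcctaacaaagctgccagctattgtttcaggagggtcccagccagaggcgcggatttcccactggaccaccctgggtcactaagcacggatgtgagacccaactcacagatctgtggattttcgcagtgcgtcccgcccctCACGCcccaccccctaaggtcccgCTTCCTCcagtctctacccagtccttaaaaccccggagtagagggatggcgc
Lrmda held GCGTG at 65 and at 53 bases before the start, and Cyp1b1 held GCGTG at 76 and GAGGAAG at 52 bases before it. Nudt7 also held GCGTG, in both of its annotated windows, and 1 of the 2 windows of Emid1 held GAGGAAG. Neither TGANTCA nor TATAAA was found in a window of these 7 genes. Over all 32851 promoter windows of the same length, 28.2% held GCGTG, 10.6% GAGGAAG, 6.75% TGANTCA and 12.4% TATAAA. These matches are letters in a window and no measured sites.

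Genes next to the 10 on the chromosome were compared, with the 3 nearest tested genes on each side of the 9 genes with a placement, 54 neighbours in all. Pisd-ps3 has no chromosome in the gene table used here. Lrmda lies on chromosome 14, Tppp3 and Nudt7 on 8, Emid1 on 11, Cndp2 on 18, Fabp7 and Col18a1 on 10, Itpka on 2 and Cyp1b1 on 17, whereas Gpr15 lies on 16. In PBS 11 of 54 neighbours (20.4%) passed the test for KO against WT, 9 as higher and 2 as lower, beside 14.1% of all genes, and 0 of them reached a 2-fold size. The count was 4 without WT PBS-1, 3 without WT PBS-2 and 7 without any one of WT LPS-1, KO PBS-1, KO PBS-2, KO LPS-1 and KO LPS-2. Smpdl3a, a secreted phosphodiesterase next to Fabp7, was higher by 0.61 ± 0.084 (adjusted p = 0.00086, limma). Rhbdd3 and Kremen1, on either side of Emid1, were higher by 0.48 ± 0.085 and 0.37 ± 0.094 (adjusted p = 0.00372 and 0.024, limma), while Emid1 was lower. Zadh2 near Cndp2 was higher by 0.34 ± 0.063 (adjusted p = 0.00467, limma), and Vdac2, a mitochondrial channel near Lrmda, by 0.16 ± 0.039 (adjusted p = 0.0174, limma). Hnrnpll and Qpct, near Cyp1b1, were higher by 0.30 ± 0.090 and 0.39 ± 0.12 (adjusted p = 0.0447 and 0.0496, limma). Rtf1 near Itpka had a difference of -0.25 ± 0.076 (adjusted p = 0.0457, limma) and Ripor1 near Tppp3 one of -0.29 ± 0.082 (adjusted p = 0.0347, limma). KO PBS-3 on slide 2 lay -0.31 from the other KO PBS arrays for Rtf1 and -0.25 for Ripor1, about as far as their gaps. It lay -0.38 from them for Qpct and -0.20 for Rhbdd3, against the direction of their gaps. The gaps of these neighbours were smaller than those of Lrmda, Emid1, Cndp2, Tppp3, Fabp7 and Cyp1b1. Those genes were chosen on this contrast, so nothing is read from the comparison. After LPS 25 of 54 (46.3%) passed, beside 39.5% of all genes, and 7 of 54 did with slide as a term. The single neighbour at a 2-fold size then, named here after its value was seen, was Maf near Nudt7, a transcription factor of macrophages, at -1.001 ± 0.240 (adjusted p = 0.00736, limma).

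**Figure D5:**
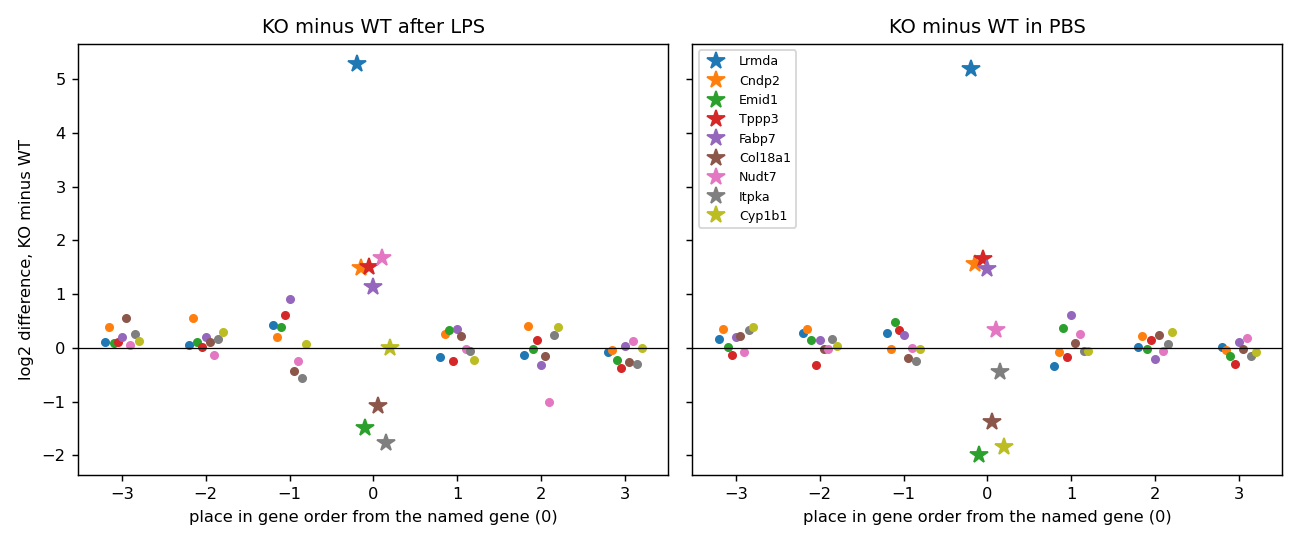
KO minus WT difference (y axis, log2) after LPS (left) and in PBS (right) of 9 of the genes (stars, at 0) and of the 3 nearest tested genes on each side (points, by place in the gene order, same colour). No neighbour reaches a size of 1 in PBS, and 1, Maf, does after LPS.

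Related genes, from lists of the same family or pathway as each gene, were tested in the same fit. Of 139 listed, 105 were tested. In PBS 19 of them passed for KO against WT, 12 as higher and 7 as lower (18.1%, beside 14.1% of all genes), and 10 did on slide 1 alone. The count was 7 without WT PBS-1, 12 without WT PBS-2 and 29 without WT PBS-3. After LPS 32 passed (30.5%, beside 39.5%), but only 4 with slide as a term. For LPS against PBS 65 passed in KO (61.9%) and 62 in WT (59.0%), and 70 for the mean over both (66.7%, 29 higher and 41 lower), each below the share of all genes. Their median KO against WT difference was 0.0100 in PBS, beside 0.0097 over all genes.

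Among the dipeptide-handling genes beside Cndp2, 3 of 9 tested were higher and 1 lower in KO in PBS. Dpep2, a membrane dipeptidase, had mean levels of 4.13 in KO and 3.34 in WT in PBS, a difference of 0.79 (adjusted p = 0.000169, limma), and a difference of 0.72 after LPS (adjusted p = 0.000131, limma). Dpep3, of the same family, was higher in KO by 1.34 in PBS (adjusted p = 0.00178, limma) and by 1.63 after LPS (adjusted p = 0.00025, limma). For Dpep3, KO PBS-3 on slide 2 lay 0.67 above the other KO PBS arrays. Both membrane dipeptidases were named for a small adjusted p on the PBS contrast. Carns1, the synthase of carnosine, was lower in KO, at -1.04 in KO and -0.50 in WT in PBS. Its difference was -0.55 in PBS (adjusted p = 0.0146, limma) and -0.89 after LPS (adjusted p = 0.000429, limma). Carns1 fell with LPS by 2.36 over both genotypes (adjusted p = 3.32e-10, limma). Lap3, a leucine aminopeptidase, rose with LPS by 0.58 (adjusted p = 5.95e-08, limma).

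Of the fatty acid binding proteins beside Fabp7, 3 of 6 tested were higher and 0 lower in KO in PBS. Fabp3 was higher by 0.81 in PBS (adjusted p = 0.00123, limma) and by 0.70 after LPS (adjusted p = 0.00126, limma). Fabp2 was higher by 0.91 in PBS (adjusted p = 0.0149, limma), with a difference of 0.20 after LPS (adjusted p = 0.457, limma). Fabp5, the bright macrophage form, did not pass for genotype, at 4.97 in KO and 4.84 in WT in PBS, and fell with LPS by 0.54 (adjusted p = 0.000333, limma). Fabp6 was not well above background in PBS and rose at least 3.16-fold with LPS in KO. It was kept by the filter through its KO LPS arrays alone, so that this rise was fixed in part by the filter.

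In the aryl hydrocarbon receptor list beside Cyp1b1, 0 of 10 were higher and 1 lower in KO in PBS. That gene was Ahr itself, the receptor, at 2.57 in KO and 2.95 in WT, a difference of -0.38 (adjusted p = 0.0347, limma). After LPS the difference of Ahr was -0.078 (adjusted p = 0.586, limma). For the mean LPS response 4 of 10 were higher and 1 lower. Tiparp, a target of the receptor that also restrains it, rose by 0.83 (adjusted p = 7.38e-08, limma). Nqo1, a quinone reductase and another target, fell at least 4.06-fold in WT, where no LPS array was well above background, and by 2.05 in KO (adjusted p = 2.07e-05, limma), where 2 of 3 LPS arrays were, so that members of this list moved in both directions while Cyp1b1 rose. Nqo1 was kept by the filter through its PBS arrays alone, so that its fall was fixed in part by the filter.

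Of the inositol phosphate genes beside Itpka, 0 of 15 were higher and 1 lower in KO in PBS. Itpr3, a receptor of inositol trisphosphate that releases calcium, had a difference of -0.62 in PBS (adjusted p = 0.000219, limma) and of -0.53 after LPS (adjusted p = 0.000226, limma). It fell with LPS by 1.72 over both genotypes (adjusted p = 3.84e-11, limma), and Itpr2 fell by 0.73 (adjusted p = 2.32e-07, limma), while Itpka rose. Of the melanosome and Rab32/Rab38 trafficking genes beside Lrmda, 1 of 15 was higher and 0 lower in KO in PBS. It was Mitf, the transcription factor of pigment cells, which macrophages also express, with a difference of 0.77 (adjusted p = 0.0427, limma). After LPS 5 of 15 were higher in KO and the difference of Mitf was 0.20 (adjusted p = 0.497, limma). With LPS 8 of 15 fell, among them Gpnmb by 2.20 (adjusted p = 8.82e-09, limma) and Bloc1s1 by 0.57 (adjusted p = 8.32e-08, limma).

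In the other lists between 1 and 4 genes passed for genotype in PBS. Of the Nudix hydrolases beside Nudt7, 1 of 17 was higher and 0 lower: Nudt17, which was not well above background in WT PBS, was at least 2.15-fold higher in KO (adjusted p = 0.000159, limma). Nudt13 and Nudt16 fell with LPS by 0.88 and 0.79 (adjusted p = 2.28e-08 and 1.37e-07, limma). Of the basement membrane and EMI-domain genes beside Col18a1 and Emid1, 1 of 8 was higher in KO in PBS, Lamc1, a laminin chain, by 0.56 (adjusted p = 0.0394, limma), and 0 were lower. Nid2, which binds laminin, rose with LPS at least 5.83-fold in WT. It was kept by the filter through its LPS arrays alone, so that this rise was fixed in part by the filter. Of the phosphatidylserine and phosphatidylethanolamine genes beside Pisd-ps3, 2 of 13 were higher and 2 lower in KO in PBS, among them Pemt, which methylates phosphatidylethanolamine, at 0.28 (adjusted p = 0.0224, limma), and Pisd-ps1. Selenoi, an ethanolamine phosphotransferase, rose with LPS by 0.51 (adjusted p = 6.57e-07, limma), and Etnk2, an ethanolamine kinase, at least 1.58-fold in each genotype. Etnk2 was kept by the filter through its KO LPS arrays alone, so that its rise was fixed in part by the filter. Of the microtubule genes beside Tppp3, 1 of 12 was higher and 2 lower, with a median difference of -0.23 over the list, beside 0.0097 over all genes. Map4 was higher by 0.20 (adjusted p = 0.0171, limma), and the tubulin deacetylase Hdac6, which is X-linked, had a difference of -0.41 (adjusted p = 0.0162, limma). For Hdac6, KO PBS-3 on slide 2 lay -0.41 from the other KO PBS arrays, a slide difference as large as that gap. Tubb2a and Tubb2b, which are tubulins, fell with LPS by 0.82 and 1.38 (adjusted p = 4.84e-08 and 4.99e-09, limma).

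For each of the 10 genes the tested gene with the most similar level over the 12 arrays was found by Pearson's r, as a description, since the arrays share genotype, treatment and slide. For Cndp2 it was Uty, a Y-linked gene (r = 0.995), read above background on 6 of 6 KO arrays and 0 of 6 WT arrays. For Lrmda it was Cd302, a C-type lectin of phagocytes (r = 0.984), with mean levels of 3.27 in KO and 2.70 in WT in PBS and of 3.24 in KO and 2.69 in WT after LPS. For Tppp3 it was Alox15, a lipoxygenase of resident peritoneal macrophages (r = 0.973), with 2.86 in KO and 2.05 in WT in PBS and 2.64 in KO and 1.95 in WT after LPS. Nothing is read from the genotype differences of such genes, since each was found as the best match of a gene picked on genotype. For Col18a1 it was Clec4g, a C-type lectin (r = 0.964), which was not well above background on any KO array. For Emid1 it was Dclk2 (r = 0.991), for Pisd-ps3 Prkd2 (r = 0.989), for Fabp7 Mapkapk2 (r = 0.978) and for Cyp1b1 Tex10 (r = 0.995). For Itpka it was Bbx (r = 0.985), with means of 0.90 in KO and 2.04 in WT after LPS and of 0.58 in KO and 0.94 in WT in PBS, and for Nudt7 Mlf2 (r = 0.971). Among the 10 genes, Lrmda and Cndp2 had r = 0.982 and Tppp3 and Col18a1 r = -0.978.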

How the data were processed

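RNA of abdominal-cavity macrophages was hybridised to 12 one-colour Agilent arrays, 3 in each of 4 groups taken from the sample titles. Per the labels' protocols, RNA was extracted with TRIzol and labelled with Cy3 after low-input amplification. The deposited files hold the signal intensity of each spot, with background and quality values, as Agilent Feature Extraction (version 11.5.1.1 per the submitters' processing notes) wrote them. The processed signal is the software's background-corrected intensity, per the file headers, and was not scaled between arrays.

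Levels are log2 processed signals minus each array's 75th percentile over the 59305 non-control spots of 62976, and spots of a probe were averaged without outlier spots (76 to 125 per array). Of 56605 probes, 32994 matched a RefSeq transcript of GRCm38.p6 (22911 symbols). Kept were 28827 probes that every array of some group (3 of 3) read well above background, and the brightest stood for its gene, which left 13283 genes. One limma 3.58.1 model (R 4.3.3) with 4 group means, a mean trend and 12 arrays gave two-sided p-values, adjusted by Benjamini-Hochberg over all genes at 0.05. A second fit over all 28827 probes served genes with several probes. The steps were tested on simulated data. The number of arrays limits the precision.

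The genes and lists of related genes were chosen with earlier results of these data known. Named were the 10 genes and Gpr15, from each list the 2 with the smallest adjusted p for KO against WT in PBS and for the mean LPS response, among called ones, the gene most alike each of the 10, and for each gene's sides the called neighbour with the smallest adjusted p in PBS. Clone and locus names were passed over.

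Alternatives were normexp background correction with an offset of 50, quantile and median scaling, other filters on dim probes, the mean over probes, slide as a term or slide 1 only, a replicate block, no mean trend, and leaving out each array. The column of mean signals was not used here, so normexp took the median signals. Residuals of equally numbered LPS and PBS arrays correlated at 0.105, 0.371 and 0.481 in WT and at 0.0405, 0.113 and 0.0807 in KO. By a rule of every pair above 0.1, the numbers were taken as pairs in WT and not in KO. Between KO and WT the correlations of equal numbers ranged from -0.102 to 0.0167. No array was a copy of another: replicates correlated at 0.99 to 0.998.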

Additional observations from a re-analysis of the deposited data

Results flagged for a closer look

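For Nudt7, LPS minus PBS was higher in KO than in WT by 1.34 (log2), and at the brighter of its 2 probes every KO LPS array lay above every KO PBS array while every WT LPS array lay below every WT PBS array. This difference was not tested, since it follows from the contrasts that chose the gene. With slide as a term the difference was 1.08. The second probe of Nudt7 fell by 1.53 in KO and by 1.54 in WT, with a difference of 0.0066 between the genotypes.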

How the results depend on the processing

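The values of the 10 genes were recomputed under 10 alternatives besides leaving out each of the 12 arrays in turn. Of 1282 such values, 1188 kept their direction and side of the threshold, or moved by less than the spread between replicates. Many of them could not change, since leaving out an array of a group outside a comparison leaves its difference as it was. The KO against WT differences that chose the genes are also among them, so the tally is no measure of robustness. The number of the 10 genes called for LPS was 5 in KO, 3 of 7 when only genes well above background on all 12 arrays were tested (which drops Lrmda, Emid1 and Cyp1b1), 8 with a replicate block on KO arrays only, and 5 to 7 with an array left out. For the mean response the count was 7, 4 of 7 under that filter and 6 to 8 with an array left out. The number at least 2-fold different between KO and WT in PBS was 8, and 5 of 7 under that filter. Neighbours called in PBS numbered 11, but 7 with median scaling, with no filter on dim probes or without the mean trend, 5 on slide 1 only, and 3 to 14 with an array left out. After LPS they numbered 25, and 7 with slide as a term. Related genes called numbered 19 in PBS, 10 on slide 1 only and 7 to 29 with an array left out, and after LPS 32, or 4 with slide as a term. Over all genes, KO against WT called 5242 after LPS and 776 with slide as a term, and in PBS 1874, 1087 on slide 1 only, 917 without WT PBS-1 and 1043 without WT PBS-2. The causes were not tested.

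Responses to LPS that turned sign were small, other than that of Nudt7 in KO, at 0.49 for its brightest probe and -0.52 for the mean over its probes. Cndp2 in KO had 0.016 with normexp and 0.066 with slide as a term, and -0.11 to 0.010 with an array left out. Cndp2 in WT had -0.037 with normexp, -0.095 with quantile scaling and -0.031 to 0.069 with an array left out, and its mean response was 0.046 with slide as a term and -0.041 to 0.018 with an array left out. Lrmda in WT, not well above background, had 0.0068 with normexp. Tppp3 in WT had 0.016 with normexp, 0.023 with median scaling, 0.13 for the mean over probes and -0.20 to 0.16 with an array left out, and Col18a1 in WT -0.14 to 0.23 with an array left out. The mean response of Nudt7 (adjusted p = 0.0387, limma) missed the threshold under 9 settings, up to an adjusted p of 0.148 with normexp, and that of Lrmda (0.0166) with slide as a term (0.0636). With normexp the KO minus WT difference in PBS was -1.34 for Emid1, and the number called for LPS in KO was 7.

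The replicate block over the WT arrays changed no call of the 10 genes for LPS in WT. The numbers did not pair the KO arrays by the rule used, though each KO array correlated best with its own number. With the block on KO arrays only, Fabp7, Col18a1 and Lrmda passed the threshold for LPS in KO (adjusted p = 0.000118, 0.00258 and 0.000853, limma). Slide 1 holds no KO LPS array, so no LPS response in KO was computed there. Signals near background limit Lrmda in WT, Emid1 after LPS and Cyp1b1 in KO PBS.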
